A study of Rattus norvegicus with 22 samples.

Results

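The genes described here are 27 genes of GABA and glycine transmission, chosen by name for what their proteins do at inhibitory synapses, out of the 32883 genes in the count table. The choice was made with earlier results of these data known. They comprise 5 alpha subunits of the GABA-A receptor, 2 beta subunits, 5 subunits of the gamma, delta, epsilon and theta classes, 2 GABA-B receptor subunits, 4 glycine receptor subunits with the scaffold protein gephyrin, 2 enzymes of GABA synthesis, 4 transmitter transporters and 2 chloride cotransporters. All 27 were found in the table by symbol.

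Sprague-Dawley rats aged 3 to 4 months were left intact or had their gonads removed, and total RNA from the ventral cervical spinal cord (segments C3 to C6) was sequenced with 1 library per rat. Castrated males (GDX, n = 5, rats 1, 2, 4, 5 and 6) were compared with intact males (n = 5, rats 1, 2, 3, 5 and 6), and ovariectomized females (OVX, n = 6) with intact females (n = 6). Tissue was taken 2 weeks after surgery. The question was how loss of the gonads bears on gene expression in a region that holds motor neurons, including those of the diaphragm. Surgery was done under isoflurane with buprenorphine for pain, the controls were age-matched rats with gonads, and a sham operation is not named in the sources used here, so gonad loss and the operation cannot be told apart. All rats were perfused with cold saline under isoflurane before dissection. Hormone levels were not used here, and the adrenal source of sex steroids was kept.

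Total counts per library ranged from 12371756 to 17571887. Medians of the male groups were 14196615 (intact) and 15645521 (GDX), and those of the female groups 14640726 (intact) and 14766802.5 (OVX). Levels are given in CPM, the share of a gene in the total count of its library, scaled by edgeR's TMM factors. Since they are not divided by gene length, levels of different genes are not compared as amounts of transcript, and a gene said to lead a list only has the most counts in it. The average input fragment size that the study lists falls into a longer class of 7 libraries and a shorter class of 15. All GDX and OVX libraries were in the shorter class, where intact males 2 and 5 and females 1 and 4 also were, while intact males 1, 3 and 6 and intact females 2, 3, 5 and 6 were in the longer class.

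GABA and glycine are the fast inhibitory transmitters of the spinal cord. Both open chloride channels, the GABA-A and glycine receptors, whose effect on the cell depends on the chloride gradient that cation-chloride cotransporters maintain, while GABA-B receptors act more slowly through G proteins. In the ventral horn they are released by inhibitory interneurons onto motor neurons and other interneurons, often from the same terminals.

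The labelled tissue was checked against marker lists. The neuronal gene Snap25 averaged 844 ± 35.7 CPM in intact males (SD, n = 5) and 766 ± 21.4 CPM in intact females (SD, n = 6). Chat, which makes the acetylcholine of motor neurons, had 43.1 ± 6.32 CPM in intact males (SD, n = 5) and 46.4 ± 9.68 CPM in intact females (SD, n = 6), and the motor neuron list was led by Prph. Genes of the dorsal horn list summed to 88.7 ± 11.2 CPM in intact males (SD, n = 5), with Penk at 45.8 ± 9.25 CPM, Tac1 at 2.17 ± 1.37 CPM and Npy at 0 counts in all 5 of them. Sim1, Lhx9, Mmp9, Tlx3 and Egr2 remained under 1 CPM in every rat of all groups, while Npy did not. In bulk tissue such as this, fewer cells of a type and less RNA per cell cannot be told apart.

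Of the 27 members, 25 had enough counts to be tested in each comparison. Gabra6, an alpha subunit best known from cerebellar granule cells, had at most 3 counts in a library and a highest level of 0.213 CPM. Gabrd, the delta subunit of extrasynaptic receptors, had 0 to 7 counts and at most 0.464 CPM. Neither was tested.

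Removal of the testes was followed by lower levels of genes for glycine and GABA release, glycine and GABA-B receptors and chloride extrusion. The glycine transporter gene Slc6a5 had a mean of 317 ± 26.3 CPM (SD, n = 5) in intact and 244 ± 21.6 CPM (SD, n = 5) in GDX males, the glycine receptor gene Glra1 217 ± 16.9 and 164 ± 18.8 CPM, the vesicular transporter gene Slc32a1 81.9 ± 10.04 and 60.8 ± 11.4 CPM, and the chloride extruder gene Slc12a5 221 ± 16.5 and 172 ± 28.7 CPM. Of the 25 members tested, 8 were lower and 0 were higher in GDX than in intact males at an adjusted p under 0.1 by the quasi-likelihood test of edgeR, 9 were lower and 0 higher at an unadjusted p under 0.05, and DESeq2 also called 8 lower and 0 higher. Among all 14931 genes tested 13.4% were called, 6.78% higher and 6.58% lower, and 23.8% had an unadjusted p under 0.05. A log2 fold change below 0 was found for 21 of the 25 members against 49.5% of all genes, and the median was -0.13 over the members and 0.00 over all genes. Since the members were chosen with earlier results of these data known, these shares are descriptive only. The groups did not overlap for 3 members, Gabbr1, Glra1 and Slc6a5, as was so for 7.47% of all genes. The 8 became 5 without intact male 1, 5 without intact male 2 and 4 without GDX male 5, and Slc6a5, Glra1, Slc32a1 and Slc12a5 were called without each of the 10 rats in turn.

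**Figure D1:**
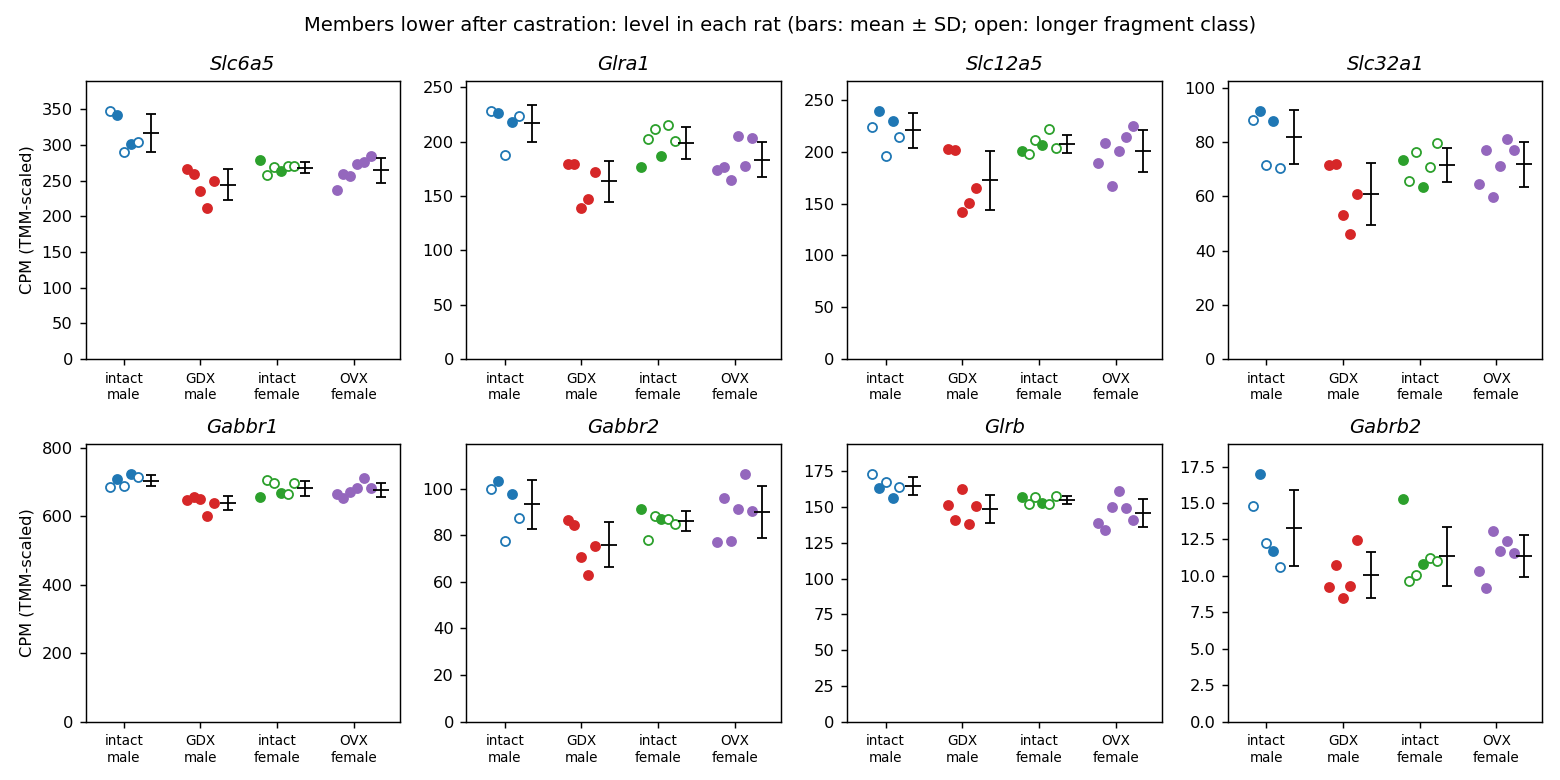
Level in CPM of the 8 members lower after castration, in a panel each, with 1 point per rat in intact males (n = 5), GDX males (n = 5), intact females (n = 6) and OVX females (n = 6), open points for the longer fragment class and bars for the mean ± SD. Slc6a5 lay between 289 and 348 CPM in intact males and between 212 and 266 CPM in GDX males, with no overlap.

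Other cell type genes moved in the same males. Of 14 genes of neurons in general, 7 were lower in GDX males and 0 higher at an edgeR adjusted p under 0.1 (10 lower and 0 higher at an unadjusted p under 0.05), with a median log2 fold change of -0.21, and their summed level, led by Nefm, was 19661, 17895.5, 20658, 18439.7 and 25701 CPM in intact males 1, 2, 3, 5 and 6 and 17507, 18196, 15791, 16556 and 18561 CPM in GDX males 1, 2, 4, 5 and 6. Shorter-class intact males 2 and 5 lay within the range of the GDX males by this sum, and at 8.39 and 8.34 against 8.16 to 8.34 by mean log2 CPM. Between longer and shorter libraries of intact rats 5 of the 14 genes were higher and 1 lower in the longer ones at an unadjusted p under 0.05 (edgeR adjusted p from 0.318 to 0.988 over the list). All 8 tested genes of the list for meninges and fibroblasts were higher, with a median of 1.71. Their summed level, led by Col1a1, was 185, 119, 127, 81.3 and 60.2 CPM in those intact males and 159.5, 276, 401, 521 and 428 CPM in those GDX males. All 6 tested endothelial genes, led by Flt1, were higher as well, with a median of 0.56, as were 2 of 4 Schwann cell genes, led by Pmp22, and 3 of 9 astrocyte genes, led by Gfap, of which 1 more was lower. Among the lists for neuron types, 1 of 10 genes of inhibitory interneurons (En1), 1 of 4 of excitatory interneurons (Slc17a6) and 1 of 8 of motor neurons (Slc18a3) were lower. None of the 7 tested dorsal horn genes was called. Of 6 oligodendrocyte precursor genes 1 was higher and 1 lower, and of 9 oligodendrocyte genes 1 was higher. None of the 6 tested microglia genes was called, with all 6 above 0 and a median of 0.15. The part of these shifts in the levels of the members was tested only by adding the level of a list as a term. With the neuron list as a term, none of the 8 members was called and Gad2 was (log2 fold change -0.94, edgeR adjusted p = 0.069). The log2 fold changes of the 8 then lay between -0.62 (Slc32a1) and -0.19 (Gabbr1), and the median over the members tested was -0.32, against -0.13 without the term. Why the calls were lost was not tested. With the meningeal list, whose mean log2 CPM did not overlap between the groups (1.55 to 2.69 in intact and 2.72 to 4.35 in GDX males), 0 members and 7 genes in all were called, with log2 fold changes of the 8 between -0.69 (Gabrb2) and -0.06 (Gabbr1). The median over the members tested was then -0.10. Slc12a5 stood at -0.09, Slc32a1 at -0.19, Glra1 at -0.24 and Slc6a5 at -0.30. Without the term these genes had -0.35, -0.43, -0.41 and -0.37, Gabbr1 had -0.14 and Gabrb2 -0.40.

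The GDX males were not alike among themselves. GDX males 1 and 2 had the highest levels of Slc6a5, Glra1, Slc32a1, Slc12a5 and Gabbr2 among the 5 and the lowest mean log2 CPM of the meningeal list (2.72 and 3.25, against 3.81 to 4.35 in rats 4, 5 and 6). The other called members did not follow this order. Glrb was highest in GDX male 4 and Gabrb2 in GDX male 6, and Gabbr1 was higher in GDX male 4 than in GDX male 1. Among intact males, rats 1 and 2 had the highest levels of Slc6a5 and also the highest values of the meningeal list (2.69 and 2.48). Over all genes the libraries of GDX males 1 and 2 also differed less from each other, with a chi-square per degree of freedom of 5.35, than from the other 3 (11.6 to 23.5).

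**Figure D2:**
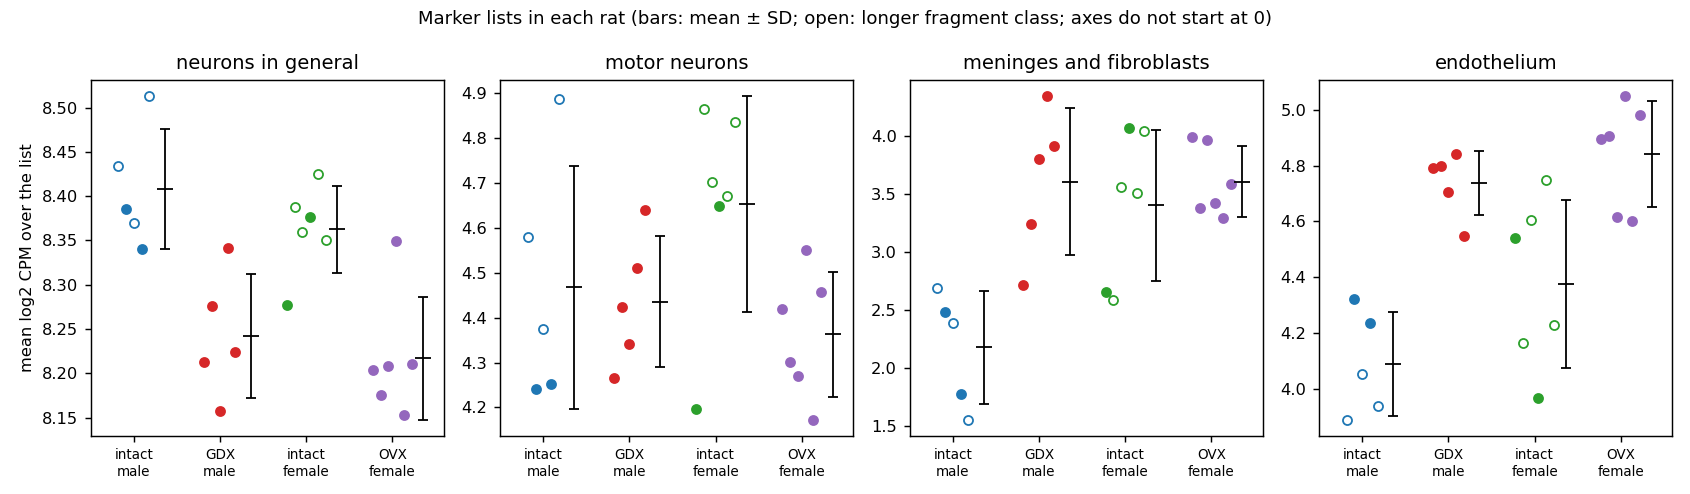
Mean log2 CPM over 4 marker lists in each rat, with a panel per list, the 4 groups along the horizontal axis, open points for the longer fragment class and bars for the mean ± SD. The list for meninges and fibroblasts lay between 1.55 and 2.69 in intact males and between 2.72 and 4.35 in GDX males, and that for neurons in general between 8.34 and 8.51 and between 8.16 and 8.34.

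The library class also differed between the male groups. With the class as a term, 5 members were called in males, Slc6a5, Glra1, Slc32a1, Slc12a5 and Gabbr2. The other 3 had log2 fold changes of -0.51 (Gabrb2), -0.17 (Gabbr1) and -0.10 (Glrb), and the median over the members was -0.18. Among shorter-class libraries, with 2 intact and 5 GDX males, the 5 called were Slc6a5, Glra1, Slc32a1, Gabbr2 and Gad1. Here Gabrb2 (-0.51), Slc12a5 (-0.44), Gabbr1 (-0.17) and Glrb (-0.10) were not called, and the median log2 fold change over the members was -0.18. Adding the RNA integrity number, which was 8.1 to 8.5 in intact and 8.0 to 8.4 in GDX males, left Slc6a5, Glra1 and Slc12a5 called. The others then had log2 fold changes of -0.43 (Gabrb2), -0.37 (Slc32a1), -0.26 (Gabbr2), -0.13 (Gabbr1) and -0.12 (Glrb), with a median of -0.08 over the members.

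In the GABA-A alpha class, which forms the GABA binding face of the receptor together with the beta subunits, 0 of 4 tested genes were called in males by edgeR and 0 by DESeq2, with 0 at an unadjusted p under 0.05 by the quasi-likelihood test of edgeR. Gabra2 had 58.9 ± 9.78 CPM (SD, n = 5) in intact and 62.0 ± 7.902 CPM in GDX males (SD, n = 5), and Gabra3 23.0 ± 1.09 and 21.0 ± 2.62 CPM. Gabra5, whose subunit is known mainly from extrasynaptic receptors, had 35.9 ± 1.56 and 33.1 ± 4.13 CPM, and Gabra4 3.37 ± 0.559 and 3.76 ± 0.572 CPM. Fold changes of the class lay between -0.13 for Gabra3 (95% interval -0.30 to 0.04) and 0.16 for Gabra4 (-0.20 to 0.52) on the log2 scale.

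Of the beta subunits, which are needed for assembly and transport of the receptor to the membrane, Gabrb2 (ENSRNOG00000003680) had 14.8, 17.0, 12.2, 11.7 and 10.6 CPM in intact males 1, 2, 3, 5 and 6 and 9.22, 10.7, 8.498, 9.29 and 12.4 CPM in GDX males 1, 2, 4, 5 and 6. Intact males 1 and 2 were highest, GDX male 6 lay above the other 3 intact males and GDX male 2 just above intact male 6, so the groups overlapped. The gene was lower in GDX males, with a log2 fold change of -0.40 ± 0.13 (SE; -24.1%) and an edgeR adjusted p of 0.0847. This call was lost without intact male 1 (adjusted p = 0.182 in edgeR), intact male 2 (0.199), GDX male 1 (0.122), GDX male 4 (0.177) and GDX male 5 (0.176), and over all alternatives the adjusted p was 0.0511 to 0.591. Gabrb1 had 18.0 ± 2.60 CPM (SD, n = 5) in intact and 16.5 ± 2.11 CPM (SD, n = 5) in GDX males, a log2 fold change of -0.13 ± 0.11 (SE).

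In the gamma, delta, epsilon and theta classes 0 of 4 tested genes were called in males by edgeR and 0 by DESeq2, and 0 had an unadjusted p under 0.05 by the quasi-likelihood test of edgeR. Gabrg1 (ENSRNOG00000002360), whose gamma subunit takes part in forming the benzodiazepine site, had 31.5, 30.5, 37.4, 33.1 and 36.6 CPM in intact and 29.2, 33.3, 44.1, 36.0 and 38.9 CPM in GDX males, in the rat order given above. The ranges overlapped, with GDX male 1 lowest and GDX male 4 highest of all 10. Its log2 fold change was 0.10 ± 0.10 (SE; edgeR adjusted p = 0.564). Gabre (ENSRNOG00000061182), for the epsilon subunit, had 0.779, 1.78, 1.89, 1.05 and 0.918 CPM in intact and 1.19, 0.923, 0.405, 0.709 and 1.17 CPM in GDX males, from 6 to 25 counts a library. Intact males 2 and 3 stood above the rest, and the other rats were mixed. Its log2 fold change was -0.52 ± 0.34 (SE; edgeR adjusted p = 0.38), with a 95% interval of -1.24 to 0.20. Gabrg3 had 2.57 ± 0.246 and 2.56 ± 0.476 CPM (SD, n = 5 each), and Gabrq, for the theta subunit, 1.35 ± 0.567 and 1.09 ± 0.266 CPM.

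Both genes of the GABA-B receptor, an obligate dimer, were lower in GDX males. Gabbr1 (ENSRNOG00000000774), for the subunit that binds GABA, had 685, 709.8, 687, 724 and 713 CPM in intact and 647, 657, 649, 601 and 639 CPM in GDX males. Every GDX male lay below every intact male. The gene fell by 0.14 ± 0.04 (SE) on the log2 scale, a change of -9.27% (edgeR adjusted p = 0.0432), and the call was lost without intact male 5 (edgeR adjusted p = 0.102) or GDX male 5 (0.115), in a range of 0.00186 to 0.909 over all alternatives. Gabbr2 (ENSRNOG00000008431), for the subunit that couples to G proteins, had 99.8, 103, 77.7, 97.9 and 87.5 CPM in intact and 86.4, 84.2, 70.8, 63.1 and 75.3 CPM in GDX males. Intact male 3 lay below GDX males 1 and 2, and the other 4 intact males lay above all GDX males. Its log2 fold change was -0.29 ± 0.09 (SE; -18.5%) with an edgeR adjusted p of 0.0524. That call was lost without intact male 1 (adjusted p = 0.124 in edgeR), intact male 2 (0.128), intact male 5 (0.111), GDX male 4 (0.118) or GDX male 5 (0.126), and the range over all alternatives was 0.0161 to 0.925.

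Among the 4 glycine receptor genes and gephyrin, 2 were lower in GDX males and 0 higher. Glra1 (ENSRNOG00000013588), for the main alpha subunit of the adult receptor, had 228, 226, 187, 218 and 224 CPM in intact and 179, 179, 139, 147 and 172 CPM in GDX males. Intact male 3 stood apart below the other intact males and still above every GDX male. The log2 fold change was -0.41 ± 0.08 (SE; -24.5%; edgeR adjusted p = 0.00773), with a 95% interval of -0.57 to -0.25. Glrb (ENSRNOG00000010199), for the beta subunit that binds gephyrin, had 174, 163, 167, 156 and 164 CPM in intact and 151.5, 141, 163, 138 and 150 CPM in GDX males. Only GDX male 4 reached into the range of the intact males. Glrb fell by 0.15 ± 0.05 (SE) on the log2 scale, a change of -9.77% (edgeR adjusted p = 0.078). Its call was lost without intact male 1 (edgeR adjusted p = 0.18), 2 (0.119), 3 (0.121) or 6 (0.115) and without GDX male 2 (0.151), 5 (0.19) or 6 (0.122), in a range of 0.0366 to 0.789 over all alternatives.

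The other genes of the glycine receptor were not called. Glra2, known from the immature receptor, had 1.57 ± 0.428 CPM (SD, n = 5) in intact and 1.51 ± 0.294 CPM in GDX males (SD, n = 5), and Glra3 1.14 ± 0.363 and 1.54 ± 0.437 CPM, with a log2 fold change for Glra3 of 0.45 ± 0.28 (SE) and a 95% interval of -0.15 to 1.05. Gphn, which encodes the gephyrin that anchors glycine and GABA-A receptors, had 48.1 ± 4.55 and 47.0 ± 2.35 CPM and a log2 fold change of -0.03 ± 0.07 (SE).

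In GABA synthesis, neither form of glutamate decarboxylase was called. Gad1 (ENSRNOG00000000007), for the form that makes most GABA of the cell, had 62.3, 58.3, 46.9, 59.5 and 37.7 CPM in intact and 48.6, 45.1, 43.4, 37.6 and 45.8 CPM in GDX males. Intact males 1, 2 and 5 were above all GDX males, and intact male 6 lay with the lowest GDX male. GDX males had a log2 fold change of -0.26 ± 0.11 (SE; edgeR adjusted p = 0.176). Without intact male 6 the gene was called, at -0.37 with an edgeR adjusted p of 0.0271, in a range of 0.0271 to 0.841 over all alternatives. Gad2, for the form at nerve endings, had 37.3 ± 10.2 CPM (SD, n = 5) in intact and 32.5 ± 6.53 CPM (SD, n = 5) in GDX males, a log2 fold change of -0.20 ± 0.17 (SE; edgeR adjusted p = 0.529). Its level was 45.4 and 48.2 CPM in the 2 shorter-class intact males and 22.5 to 35.6 CPM in the 3 longer-class ones. GDX males, all of the shorter class, had 23.7 to 41.7 CPM. Gad1 was also called among the shorter-class libraries, and Gad2 with the neuron list as a term.

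Of the 4 transmitter transporters, those of glycinergic neurons and of synaptic vesicles were lower in GDX males. Slc6a5 (ENSRNOG00000031662), which takes up glycine into glycinergic terminals, had 348, 342, 289, 301 and 304 CPM in intact and 266, 259, 235, 212 and 250 CPM in GDX males. Every GDX male lay below every intact male, with intact males 1 and 2 highest. The log2 fold change was -0.37 ± 0.07 (SE; -22.8%; edgeR adjusted p = 0.0068), with a 95% interval of -0.52 to -0.23. Slc32a1 (ENSRNOG00000015393), which loads GABA and glycine into vesicles, had 88.1, 91.6, 71.5, 87.7 and 70.6 CPM in intact and 71.8, 72.0, 53.2, 46.2 and 61.1 CPM in GDX males. Intact males 3 and 6 lay just below GDX males 1 and 2, so the groups overlapped. Its log2 fold change was -0.43 ± 0.11 (SE; -25.6%; edgeR adjusted p = 0.0304), with a 95% interval of -0.67 to -0.19.

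The glial transporters were not called in males. Slc6a9, the glycine transporter of astrocytes, had 237 ± 10.2 CPM (SD, n = 5) in intact and 234 ± 18.0 CPM (SD, n = 5) in GDX males, a log2 fold change of -0.02 ± 0.05 (SE). Slc6a11 (ENSRNOG00000005697), a GABA transporter of astrocytes, had 106, 120, 111, 114 and 119 CPM in intact and 114, 112, 108, 97.5 and 109 CPM in GDX males. The ranges overlapped, with GDX male 5 lowest, and the log2 fold change was -0.08 ± 0.05 (SE; edgeR adjusted p = 0.392).

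For chloride balance, the gene of the neuronal extruder was lower in GDX males and that of the importer was not called. Slc12a5 (ENSRNOG00000018111), which encodes the potassium-chloride cotransporter KCC2 that keeps neuronal chloride low, had 224, 240, 196, 229 and 214 CPM in intact and 203, 202, 142, 150.7 and 165 CPM in GDX males. Intact male 3 lay below GDX males 1 and 2, and the other 4 intact males lay above all GDX males. The log2 fold change was -0.35 ± 0.09 (SE; -21.8%; edgeR adjusted p = 0.0292). Slc12a2, for the sodium-potassium-chloride cotransporter NKCC1 that brings chloride into cells, had 486.5 ± 26.3 CPM (SD, n = 5) in intact and 479 ± 9.16 CPM (SD, n = 5) in GDX males, a log2 fold change of -0.02 ± 0.04 (SE) with a 95% interval of -0.12 to 0.07.

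**Figure D3:**
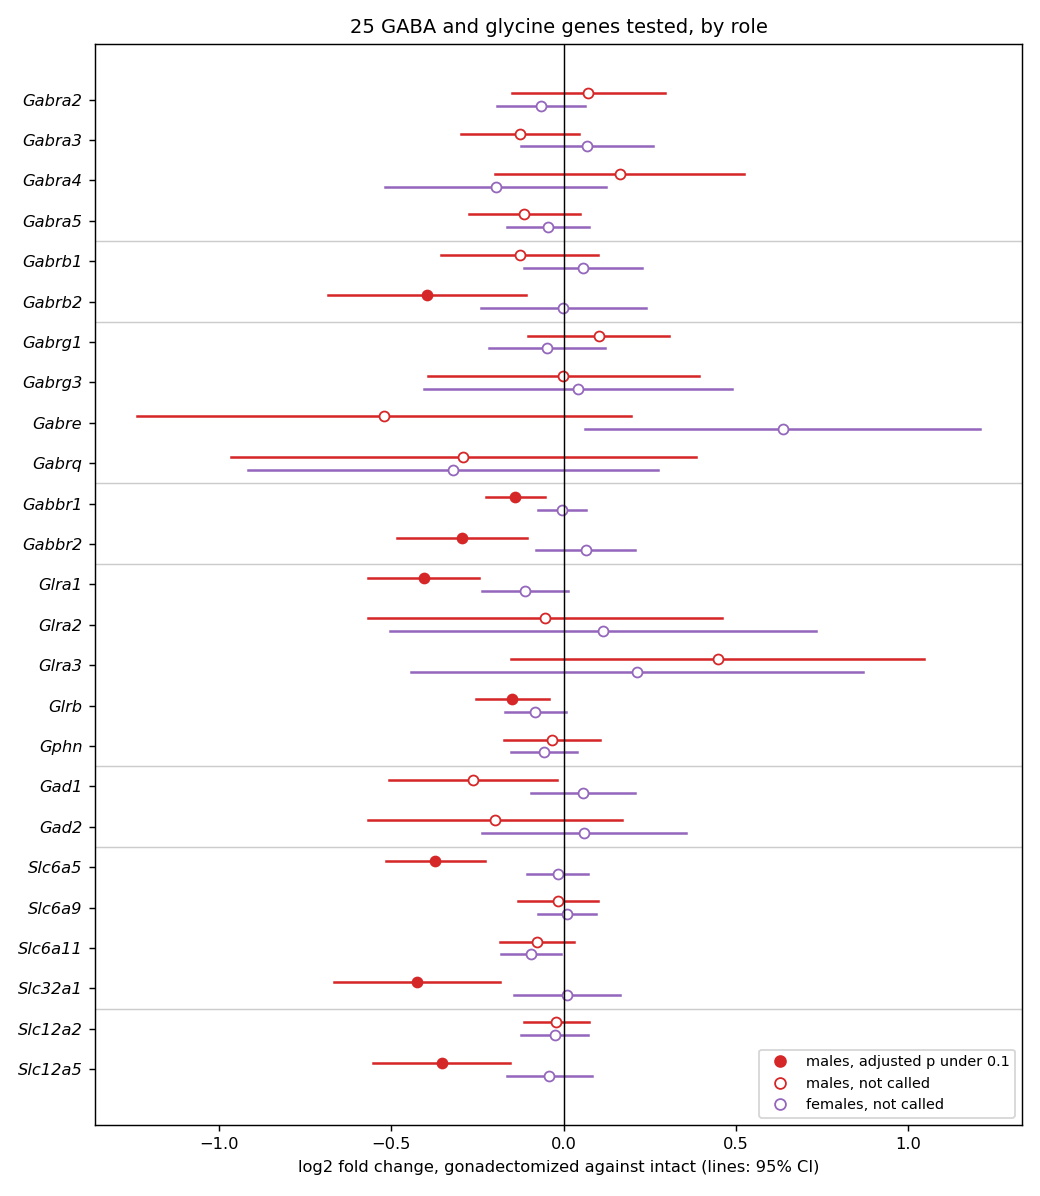
Log2 fold change of gonadectomized against intact rats for each of the 25 members tested, by role, in males (red) and females (purple), with 95% intervals as lines and filled points at an edgeR adjusted p under 0.1. In males the 8 filled points lay between -0.43 (Slc32a1) and -0.14 (Gabbr1), and in females no point was filled.

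Promoters are shown for Slc6a5, Slc32a1 and Slc12a5, since these genes of glycine uptake, vesicle filling and chloride extrusion were lower together in GDX males. The sequences are RefSeq promoters of the GRCr8 build, each of 300 bases from 250 before to 50 after the gene start, written 5′ to 3′ on the strand of the gene, here the plus strand for all 3, at chr1:108781303-108781602 for Slc6a5, chr3:167686995-167687294 for Slc32a1 and chr3:174115583-174115882 for Slc12a5. Capitals mark, on either strand, the arms of the estrogen and androgen response elements and the GC box, whose letters are given after the sequences.
Slc6a5: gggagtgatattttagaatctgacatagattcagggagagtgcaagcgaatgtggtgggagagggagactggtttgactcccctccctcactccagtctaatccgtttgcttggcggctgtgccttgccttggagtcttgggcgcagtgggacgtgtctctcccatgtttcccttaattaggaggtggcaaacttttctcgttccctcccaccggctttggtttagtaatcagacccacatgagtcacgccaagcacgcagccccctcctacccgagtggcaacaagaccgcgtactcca
Slc32a1: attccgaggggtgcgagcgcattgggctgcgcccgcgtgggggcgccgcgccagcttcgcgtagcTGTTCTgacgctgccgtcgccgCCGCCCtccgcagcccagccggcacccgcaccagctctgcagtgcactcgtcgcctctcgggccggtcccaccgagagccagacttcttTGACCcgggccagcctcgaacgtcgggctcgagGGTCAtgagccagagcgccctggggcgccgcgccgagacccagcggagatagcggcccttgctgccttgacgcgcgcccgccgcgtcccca
Slc12a5: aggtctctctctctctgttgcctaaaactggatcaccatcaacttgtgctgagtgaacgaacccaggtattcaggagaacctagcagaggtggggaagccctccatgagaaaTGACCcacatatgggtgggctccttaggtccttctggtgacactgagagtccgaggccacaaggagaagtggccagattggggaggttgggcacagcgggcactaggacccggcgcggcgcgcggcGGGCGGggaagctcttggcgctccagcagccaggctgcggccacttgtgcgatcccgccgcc

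Of the 27 members, 25 had a promoter in that collection, 7 of the 8 called in males among them, and Gabra2 and Glra1 had no match. Motifs were searched on both strands, and their shares are of all 33469 promoters of the same length. The estrogen response element GGTCANNNTGACC was in 0.0269% of all promoters and in 0 of 25 member promoters, and its arm GGTCA, which that element contains, in 40.5% of all promoters and in 5 members, Gabrb2, Gabrq, Slc6a11, Slc32a1 and Slc12a5. The androgen response element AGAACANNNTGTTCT was in 0.0149% of all promoters and in 0 members, and its arm AGAACA in 20.7% and in 2 members, Gabre and Slc32a1. The GC box GGGCGG was in 33.1% of all promoters and in 18 of 25 members, and the cAMP response element TGACGTCA in 1.83% and in 0. Slc32a1 held 2 GGTCA, 1 AGAACA and 1 GGGCGG, Slc12a5 held 1 GGTCA and 1 GGGCGG, and Slc6a5 held none of these. The share of G and C was 54.3% in the Slc6a5 promoter, 73.7% in that of Slc32a1 and 61.3% in that of Slc12a5. A match is a run of letters and shows no binding.

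Removal of the ovaries was followed by no called change among the members. At an adjusted p under 0.1 edgeR called 0 of 25 members in OVX against intact females and DESeq2 0, and 2 had an unadjusted p under 0.05 by the quasi-likelihood test of edgeR, Gabre, higher, and Slc6a11, lower. Of all 14910 genes tested 0.0335% were called, which is 5 genes, and 10.2% had an unadjusted p under 0.05. The groups overlapped for all 25 members, and did not overlap for 0.543% of all genes. The median log2 fold change was -0.01 over the members, with 14 below 0, and 0.00 over all genes.

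In females the ranges of the genes for transmitter release and synthesis overlapped. Slc6a5 had 258 CPM at the lowest, 269 at the median and 279 at the highest in intact females, and 237, 266 and 284 CPM in OVX females. The OVX values spread on both sides of the intact ones, and the log2 fold change was -0.02 ± 0.04 (SE) with a 95% interval of -0.11 to 0.07. Slc32a1 had 63.6, 72.0 and 79.7 CPM in intact and 59.6, 74.1 and 81.2 CPM in OVX females, again with the wider range in OVX, and a log2 fold change of 0.01 ± 0.07 (SE; 95% interval -0.14 to 0.16). For Gad1 the lowest, median and highest were 38.4, 41.5 and 55.0 CPM in intact and 42.6, 44.9 and 47.4 CPM in OVX females. Intact female 1 held the highest Gad1 value of all 12, and the log2 fold change was 0.06 ± 0.07 (SE). Gad2 had 33.6 ± 9.11 CPM (SD, n = 6) in intact and 35.0 ± 5.27 CPM (SD, n = 6) in OVX females.

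Receptor genes of females were as follows. Glra1 had a lowest, median and highest value of 177, 202 and 216 CPM in intact and 165, 177 and 205 CPM in OVX females. OVX females 1 and 3 lay under all intact females and the other 4 within their range, and the log2 fold change was -0.11 ± 0.06 (SE; edgeR adjusted p = 0.546; 95% interval -0.24 to 0.01). Glrb had 152, 155 and 158 CPM in intact and 134, 145 and 161 CPM in OVX females, and a log2 fold change of -0.08 ± 0.04 (SE; edgeR adjusted p = 0.527). For Gabbr1 the 3 values were 655, 683 and 705 CPM in intact and 653, 675 and 710.0 CPM in OVX females, ranges of nearly the same limits, with a log2 fold change of -0.01 ± 0.03 (SE). Gabbr2 had 78.1, 87.0 and 91.4 CPM in intact and 77.2, 90.9 and 106 CPM in OVX females, with an OVX rat highest, and a log2 fold change of 0.06 ± 0.07 (SE). Gabrb2 had 9.68, 10.9 and 15.3 CPM in intact and 9.16, 11.6 and 13.1 CPM in OVX females, with intact female 1 highest, and a log2 fold change of 0.00 ± 0.11 (SE).

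The low-count epsilon gene and the astrocytic GABA transporter had the smallest unadjusted p of the members in females. Gabre had 0.311, 0.883 and 0.948 CPM at the lowest, median and highest in intact females and 0.822, 1.22 and 1.61 CPM in OVX females, from 5 to 27 counts a library. Intact female 3 was far below the others, and OVX females 1, 2, 5 and 6 lay above all intact females. The log2 fold change was 0.64 ± 0.27 (SE; unadjusted p = 0.032 in edgeR's quasi-likelihood test, adjusted p = 0.437). Slc6a11 had 118, 128 and 134 CPM in intact and 113, 117 and 127 CPM in OVX females. OVX females 1, 2, 3 and 5 lay under all intact females, and the log2 fold change was -0.10 ± 0.04 (SE; unadjusted p = 0.0347 in edgeR's quasi-likelihood test, adjusted p = 0.449). In intact females Slc6a11 had 126 to 134 CPM in the longer libraries and 118 to 122 CPM in the shorter ones, the class of all OVX libraries. In intact males its mean was lower in the longer libraries (112 CPM) than in the shorter ones (117 CPM). Gabrg1 had 33.7, 37.0 and 43.1 CPM in intact and 31.1, 35.6 and 44.6 CPM in OVX females, with the wider range in OVX, and a log2 fold change of -0.05 ± 0.08 (SE).

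Chloride cotransporters and the remaining members were not called in females. Slc12a5 had 198, 205 and 222 CPM at the lowest, median and highest in intact and 167, 205 and 225 CPM in OVX females, equal at the median with lower values among OVX rats, and a log2 fold change of -0.04 ± 0.06 (SE; 95% interval -0.16 to 0.08). Slc12a2 had 461 ± 28.8 CPM (SD, n = 6) in intact and 452 ± 22.7 CPM (SD, n = 6) in OVX females, Slc6a9 229 ± 7.66 and 230.4 ± 12.9 CPM, and Gphn 48.0 ± 1.29 and 46.0 ± 2.97 CPM. Among the alpha, beta and gamma subunits, Gabra2 had 59.6 ± 3.82 and 56.7 ± 5.36 CPM, Gabra3 21.8 ± 2.81 and 22.8 ± 2.88 CPM, Gabra4 4.09 ± 0.559 and 3.57 ± 0.713 CPM, Gabra5 34.4 ± 1.67 and 33.3 ± 2.82 CPM, Gabrb1 17.6 ± 2.01 and 18.3 ± 1.69 CPM and Gabrg3 2.30 ± 0.662 and 2.38 ± 0.507 CPM. The theta gene Gabrq had 1.20 ± 0.412 and 0.968 ± 0.348 CPM, Glra2 1.50 ± 0.616 and 1.65 ± 0.689 CPM, and Glra3 1.50 ± 0.639 and 1.76 ± 0.652 CPM. Intervals of the low-count genes were wide, with a log2 fold change of -0.32 for Gabrq (95% interval -0.92 to 0.27) and 0.21 for Glra3 (-0.44 to 0.87).

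Of the marker genes for neurons, motor neurons, meninges and endothelium, edgeR called only Kdr in females. Of the 14 genes of neurons in general 9 were lower at an unadjusted p under 0.05 by the quasi-likelihood test of edgeR, with adjusted p from 0.189 to 0.946 over the list and a median log2 fold change of -0.11. Their summed level was 20656 ± 1896 CPM (SD, n = 6) in intact and 17409 ± 1673 CPM (SD, n = 6) in OVX females. Of 8 tested motor neuron genes 7 were lower at an unadjusted p under 0.05, with edgeR adjusted p from 0.149 to 0.665 and a median of -0.35. All OVX libraries are of the shorter class, and between longer and shorter libraries of intact rats all 8 of these genes were higher in the longer ones at an unadjusted p under 0.05 (edgeR adjusted p from 0.362 to 0.606), with a median of 0.40. The mean log2 CPM of the list was 4.20 and 4.65 in the shorter-class intact females 1 and 4 and 4.17 to 4.55 in OVX females. Kdr, of the endothelial list, was higher (log2 fold change 0.77 ± 0.13 SE; edgeR adjusted p = 0.0966). At an unadjusted p under 0.05, 5 of the 6 tested endothelial genes were higher, with a median of 0.42 and a summed level of 141 ± 31.6 CPM in intact and 194 ± 25.7 CPM in OVX females (SD, n = 6 each). The list for meninges and fibroblasts summed to 125.8 to 435 CPM in intact and 256 to 447 CPM in OVX females, with edgeR adjusted p from 0.571 to 0.959 over its 8 tested genes.

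The test of whether the response to gonad loss differed between the sexes called no member in edgeR. At an adjusted p under 0.1 edgeR called 0 of 25 members and DESeq2 1, Slc6a5. An unadjusted p under 0.05 by the quasi-likelihood test of edgeR was reached by 9 members, all with a lower value in the male response, where 11.6% of all genes reached it and 0.116% of 15562 genes were called. The median difference was -0.13 over the members and 0.00 over all genes. Of the marker lists, 7 of 8 tested genes of meninges and fibroblasts had a higher value in the male response at that unadjusted p (median 1.33). All 4 tested Schwann cell genes did too (median 0.96), and 4 of 14 genes of neurons in general had a lower one (median -0.09). None of these was called, with edgeR adjusted p from 0.113, 0.28 and 0.338 up.

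The smallest p of the members was that of Slc6a5, with a difference of -0.35 ± 0.08 (SE) on the log2 scale (male response minus female response; edgeR adjusted p = 0.123; DESeq2 adjusted p = 0.0105). It was called by edgeR without intact male 3 (adjusted p = 0.0967), GDX male 1 (0.0418), GDX male 2 (0.072), intact female 1 (0.0684) or OVX female 1 (0.076), and without a filter on low counts (0.098), in a range of 0.0105 to 0.717 over all alternatives. The vesicular transporter Slc32a1 differed by -0.43 ± 0.14 (SE; edgeR adjusted p = 0.22), and the extruder gene Slc12a5 by -0.31 ± 0.12 (SE; edgeR adjusted p = 0.274). For the receptors, the difference was -0.35 ± 0.12 for Gabbr2 (SE; edgeR adjusted p = 0.225), -0.13 ± 0.05 for Gabbr1 (SE; 0.247), -0.29 ± 0.10 for Glra1 (SE; 0.247), -0.39 ± 0.18 for Gabrb2 (SE; 0.411) and -1.15 ± 0.44 for Gabre (SE; 0.287). Gad1 had -0.32 ± 0.14 (SE; edgeR adjusted p = 0.386). Glrb, called in males and not in females, had a difference of -0.06 ± 0.06 (SE; edgeR adjusted p = 0.77). So a difference between the sexes in the response of the 8 genes called in males was not shown by edgeR.

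With the gonads in place, males and females differed in both directions in transmitter transport. Slc6a5, the glycine transporter of terminals, had 317 ± 26.3 CPM in intact males (SD, n = 5) and 268 ± 7.23 CPM in intact females (SD, n = 6), and Slc6a11, the astrocytic GABA transporter, 114 ± 5.80 and 127 ± 6.23 CPM. At an edgeR adjusted p under 0.1, 1 member was higher and 1 lower in intact males, where 4.01% of all 14937 genes were called, 1.45% higher and 2.56% lower. At an unadjusted p under 0.05 by the quasi-likelihood test of edgeR there were 6 members higher and 2 lower, against 15.5% of all genes. Values above 0 were found for 20 of 25 members, and the median log2 fold change was 0.08 over the members and 0.00 over all genes.

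For Slc6a5 every intact male, from 289 CPM up, lay above every intact female, at most 279 CPM. It was the only member whose intact groups did not overlap, as 2.67% of all genes did not. The log2 fold change was 0.24 ± 0.05 (SE; 18.3% higher; edgeR adjusted p = 0.0161), and it was called without each of the 11 rats in turn. For Slc6a11 intact males had 106 to 120 CPM and intact females 118 to 134 CPM, overlapping at the edge. Its log2 fold change was -0.15 ± 0.04 (SE; -9.86%; edgeR adjusted p = 0.0961).
The call was lost without intact male 1 (edgeR adjusted p = 0.246), 3 (0.154), 5 (0.169) or 6 (0.102) and without intact female 2 (0.148), 3 (0.177), 5 (0.179) or 6 (0.146), in a range of 0.0332 to 0.88 over all alternatives, and among the shorter-class libraries its log2 fold change was -0.03. The count of 2 members was 1 without intact male 1 or 5 or without intact female 2, 3, 5 or 6. Gad1 was called without intact male 6 (edgeR adjusted p = 0.0548) or intact female 1 (0.073), and Gabbr2 and Glra1 without intact male 3 (0.0998 and 0.0971).

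Other members with an unadjusted p under 0.05 between the intact sexes in edgeR's quasi-likelihood test were higher in males except Gabrg1. They were Glrb (log2 fold change 0.09 ± 0.03 SE, edgeR adjusted p = 0.179), Slc32a1 (0.20 ± 0.08 SE, 0.21), Gad1 (0.29 ± 0.12 SE, 0.238), Gabre (0.69 ± 0.31 SE, 0.305), Glra1 (0.13 ± 0.06 SE, 0.307) and Gabrg1 (-0.15 ± 0.07 SE, 0.304). Since the same intact males are the controls of the castration comparison, and the same intact females those of the ovariectomy comparison, values in the comparisons are not independent. Side by side, Slc6a5 had -0.37 in GDX against intact males, -0.02 in OVX against intact females and 0.24 in intact males against intact females.

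Beside the members, 6 of 8 tested genes of meninges and fibroblasts were lower in intact males than in intact females, with a median log2 fold change of -1.26, as were 3 of 4 Schwann cell genes and 1 of 6 endothelial genes. Snap25 of the list of neurons in general was higher (0.14 ± 0.04 SE; edgeR adjusted p = 0.0459), and so was Slc17a6 of the excitatory interneurons (0.27 ± 0.06 SE; edgeR adjusted p = 0.0267). With the level of the meningeal list as a term, 0 members were called between the intact sexes, and among the shorter-class libraries, with 2 rats of each sex, also 0. The log2 fold change of Slc6a5 was then 0.29 (edgeR adjusted p = 0.257) and 0.25 (0.337), beside the 0.24 reported. That of Slc6a11 was -0.20 (0.463) and -0.03 (0.88). Why these calls were lost was not tested.

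The library class itself was compared among the 11 intact rats with sex as a term. Neither edgeR nor DESeq2 called any of the 25 members between longer and shorter libraries (0 and 0), where 0% of 15723 genes were called, and 7 members had an unadjusted p under 0.05 by the quasi-likelihood test of edgeR, 2 higher and 5 lower in longer libraries, against 7.75% of all genes. The smallest p was that of Gad2, with 31.0 CPM on average in the 3 longer and 46.8 CPM in the 2 shorter libraries of intact males, 29.4 and 42.0 CPM in the 4 longer and 2 shorter libraries of intact females, and a log2 difference of -0.56 ± 0.13 (SE; edgeR adjusted p = 0.318). Gabra2 had 64.3 and 50.9 CPM in those of intact males and 61.7 and 55.4 CPM in those of intact females, a log2 difference of 0.24 ± 0.07 (SE; edgeR adjusted p = 0.371). Without a filter on low counts both genes were called (edgeR adjusted p = 7.99e-05 for Gad2 and 0.033 for Gabra2). The others were Gabra3 (-0.20 ± 0.07 SE), Gabrg1 (0.15 ± 0.06 SE), Gad1 (-0.25 ± 0.10 SE), Glra2 (-0.60 ± 0.27 SE) and Gabbr2 (-0.13 ± 0.06 SE).

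For the 8 members lower in GDX males, class means of intact rats differed in both directions, and all GDX libraries belong to the shorter class. In intact males Glrb was lower in the shorter libraries, with 168 CPM in the longer and 159.85 CPM in the shorter ones. The other 7 were higher there, Slc6a5 with 313 and 321 CPM, Glra1 with 213 and 222 CPM, Slc32a1 with 76.7 and 89.7 CPM, Slc12a5 with 211 and 235 CPM, Gabbr1 with 695 and 717 CPM, Gabbr2 with 88.3 and 100.7 CPM and Gabrb2 with 12.6 and 14.4 CPM. In intact females Glra1 (208 CPM in the longer and 182 CPM in the shorter libraries), Gabbr1 (691 and 661 CPM), Slc32a1 (73.1 and 68.4 CPM) and Slc12a5 (209 and 204 CPM) were lower in the shorter ones, Slc6a5 (267 and 271 CPM), Gabbr2 (84.6 and 89.1 CPM) and Gabrb2 (10.5 and 13.04 CPM) higher, and Glrb had 155 CPM in both. The log2 difference between longer and shorter libraries over both sexes was -0.03 ± 0.05 (SE) for Slc6a5, 0.07 ± 0.06 for Glra1, -0.06 ± 0.08 for Slc32a1, -0.05 ± 0.05 for Slc12a5, 0.01 ± 0.03 for Gabbr1, -0.13 ± 0.06 for Gabbr2, -0.26 ± 0.12 for Gabrb2 and 0.03 ± 0.04 for Glrb.

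A list of 44 further genes around the same synapses held 40 that could be tested, and in males 7 were higher and 9 lower at an edgeR adjusted p under 0.1, with a median log2 fold change of -0.04, where 13.4% of all genes were called. The smallest p were those of Slc6a13 and Slc12a7. Slc6a13, a GABA transporter known from the meninges, had 5.05 ± 1.83 CPM (SD, n = 5) in intact and 14.9 ± 6.01 CPM (SD, n = 5) in GDX males, a log2 fold change of 1.57 ± 0.26 (SE; edgeR adjusted p = 0.00554). Slc6a12, for the betaine and GABA transporter, had 1.77 ± 1.06 and 4.49 ± 1.46 CPM and a log2 fold change of 1.35 ± 0.32 (SE; edgeR adjusted p = 0.019). Both moved the way the list for meninges and fibroblasts did. Slc12a7, a potassium-chloride cotransporter, had 6.93 ± 0.385 and 12.1 ± 2.70 CPM and a log2 fold change of 0.80 ± 0.13 (SE; edgeR adjusted p = 0.00554).

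Partners of inhibitory synapses were mostly lower where called, 5 lower and 1 higher of 13. Iqsec3, which binds gephyrin, had 162 ± 10.7 CPM (SD, n = 5) in intact and 128 ± 16.1 CPM in GDX males (SD, n = 5) and a log2 fold change of -0.34 ± 0.08 (SE; edgeR adjusted p = 0.0154). Insyn1, of the inhibitory postsynapse, fell by 0.28 ± 0.06 (SE; edgeR adjusted p = 0.0114) on the log2 scale, and Nlgn2, the adhesion protein of inhibitory synapses, by 0.25 ± 0.07 (SE; edgeR adjusted p = 0.0348). In breakdown and supply 2 were lower and 2 higher of 12, the lower ones being Slc7a10, an amino acid transporter of astrocytes that carries glycine and serine, at -0.31 ± 0.06 (SE; edgeR adjusted p = 0.0082), and Shmt2, which interconverts serine and glycine in mitochondria, at -0.29 ± 0.06 (SE; edgeR adjusted p = 0.00947). The higher ones were Shmt1, which also interconverts serine and glycine, at 0.86 ± 0.25 (SE; edgeR adjusted p = 0.0438), and Gldc, of glycine breakdown, at 0.58 ± 0.17 (SE; edgeR adjusted p = 0.0475). Of the GABA-B effectors 1 of 3 tested was lower, of the other genes of chloride handling 1 was higher and 1 lower of 9 tested, and Dbi, the benzodiazepine site ligand, was higher.

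In females 5 of these 40 genes had an unadjusted p under 0.05 by the quasi-likelihood test of edgeR, with adjusted p from 0.257 to 0.994, where 10.2% of all genes had, and in the comparison of the male with the female response 13 had, with adjusted p from 0.129 to 0.967, where 11.6% of all genes had. Between the intact sexes 3 were called, all lower in males, where 4.01% of all genes were called. They were Slc6a13 at -1.34 ± 0.21 (SE; edgeR adjusted p = 0.00454), Slc6a12 at -1.33 ± 0.27 (SE; edgeR adjusted p = 0.0202) and Slc12a7 at -0.46 ± 0.13 (SE; edgeR adjusted p = 0.0884). These genes had 12.7 ± 3.23, 4.42 ± 0.756 and 9.55 ± 1.91 CPM (SD, n = 6) in intact females.

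The dependence of the male calls on processing was followed for the 4 members with the smallest adjusted p. Slc6a5 lay between -0.43 and -0.30, Glra1 between -0.45 and -0.24, Slc32a1 between -0.62 and -0.19 and Slc12a5 between -0.44 and -0.09 over 22 alternatives each. All were below 0, and the least negative value of each of them came with the level of the meningeal list as a term.

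**Figure D4:**
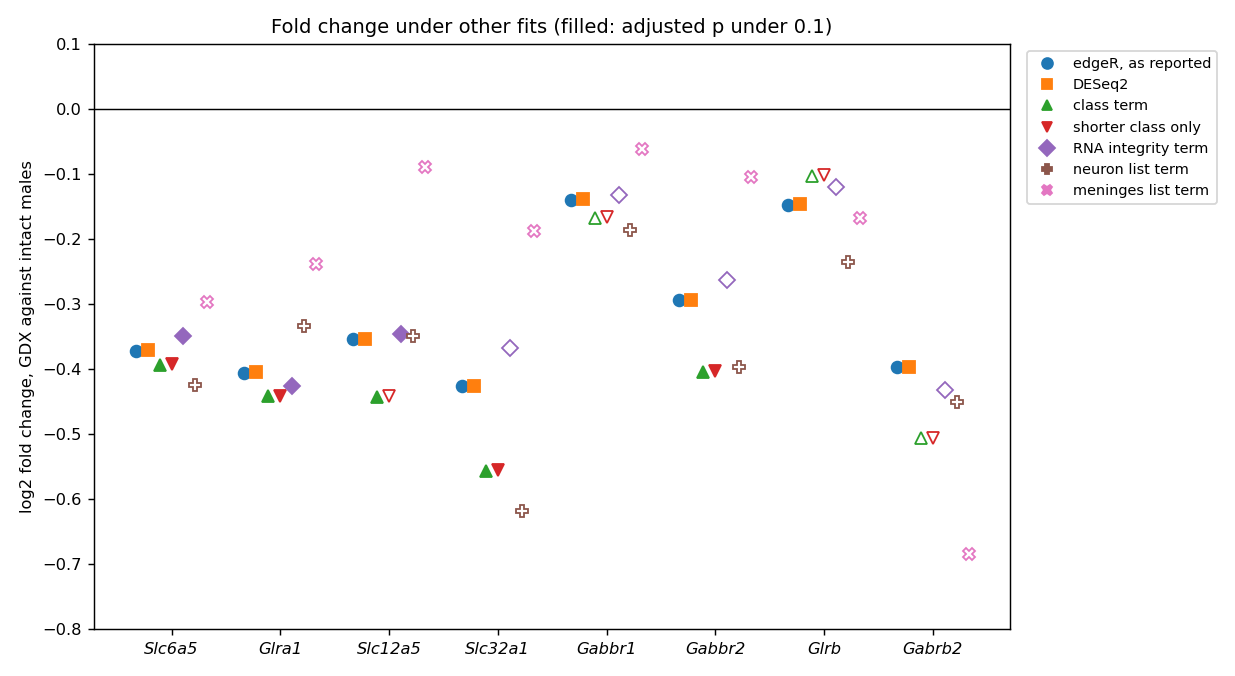
Log2 fold change in GDX against intact males of the 8 members called, as reported and under 6 other fits, with a symbol per fit and filled symbols at an adjusted p under 0.1. All values lay below 0, from -0.69 for Gabrb2 to -0.06 for Gabbr1, and none was filled with the neuron list or the meningeal list as a term.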

How the data were processed

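RNA of the ventral cervical spinal cord of 22 rats was sequenced with 1 library per rat. The authors mapped trimmed reads to the rat genome Rnor_6.0 and deposited raw counts of reads per gene, made with Subread featureCounts and not normalized. The submitters' processing notes name TopHat2 2.0.13, while the published methods name Hisat2 and another library kit than the labels do. Settings for strand, reads with several matches and overlapping genes are not given in the sources used here, so reads of overlapping or antisense genes cannot be told apart. All 22 columns of the table were matched to a rat by the labels.

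Counts were analysed in R 4.3.3 with edgeR 4.0.16. Each comparison was fitted over all genes that passed filterByExpr, with TMM factors and the quasi-likelihood test, and p-values were adjusted by Benjamini-Hochberg over all genes tested, at a level of 0.1. The male, female and intact-sex comparisons used their own libraries, the difference between responses used all 22, and the fragment class was compared in intact rats with a term for sex. The SE is the log2 fold change over the square root of the F statistic, and 95% intervals use the t distribution at the test's degrees of freedom. Log2 CPM used a prior count of 2. Reads carry no molecular identifiers as far as the sources used here say, so counting precision covers reads and not molecules.

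The 27 members and the lists of pathway and marker genes were chosen with earlier results of these data known. All members are named. Those with an adjusted p under 0.1 or an unadjusted p under 0.05 in the male, female, difference or intact-sex comparison, 12 in number, are given by rat in males and as lowest, median and highest value in females, and pathway genes were named at an adjusted p under 0.1, or the 8 with the smallest p where more passed. Shmt1, Gldc and Dbi are named beside these after their values were seen. Some listed genes (Kctd8, Kctd12, Kctd16, Ahnak2, Itgam, Col1a2, Pecam1) are not analysed here. Alternatives were DESeq2 1.42.0, RLE factors, other filters, a level of 0.05, terms for class, RNA integrity number, neuron level and meningeal level, shorter-class libraries, a single fit of all rats, a block for the rat number, and leaving out each rat. Scripts were tested on simulated data. Single values far from their group were found with Dixon's test at 95%. Within groups no libraries agreed within sampling noise.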

Additional observations from a re-analysis of the deposited data

Results flagged for a closer look

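Dixon's test at 95% was run on the level of each of the 25 members tested and each marker list in each group, and 13 of 148 groups held a single value far from the others, where chance gives about 1 in 20. No explanation was tested for any of them.

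Intact female 1 held 4 of these values. Gabrb2 was at 15.3 CPM (9.68 to 11.2 CPM in the other intact females) and Gad1 at 55.0 CPM (38.4 to 42.6 CPM). The mean log2 CPM of its motor neuron list was 4.20 (4.65 to 4.87 in the others) and that of its astrocyte list 8.301 (8.43 to 8.498). In intact female 3, Gabre was at 0.311 CPM (0.832 to 0.948 CPM).

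Among intact males, Glra1 was at 187 CPM in rat 3 (218 to 228 CPM in the others) and Gabra3 at 24.9 CPM in rat 2 (22.2 to 22.9 CPM). In intact male 6 the mean log2 CPM was 1.32 for excitatory interneurons (1.73 to 1.81) and 0.87 for dorsal horn neurons (1.19 to 1.31). This is the rat without which Gad1 passed the test in males.

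In OVX female 5, Gabra3 was at 28.4 CPM (20.1 to 22.9 CPM in the other OVX females) and Glra2 at 2.96 CPM (1.09 to 1.79 CPM). OVX female 4 had a mean log2 CPM of 8.35 for neurons in general (8.15 to 8.21) and 3.90 for microglia (4.19 to 4.26). GDX males held none of the 13 values.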

How the results depend on the processing

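Over all alternatives 2960 of 3045 log2 fold changes of single members kept their side of the threshold, 68 no longer passed it and 17 newly passed it. The sign differed from the reported one in 157 values, none of them called in the reported or the other fit. Of 122 medians over the members 121 stayed within 1 SD, the exception being -0.32 in males with the neuron list as a term, and all 216 group means did with RLE factors or library totals.

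In males 8 members were called, against 5 at an adjusted p under 0.05, 5 with the fragment class as a term, 5 among shorter-class libraries, 3 with the RNA integrity number as a term, 1 with the neuron list and 0 with the meningeal list as a term, and 4 to 8 with each rat left out. A stricter level calls fewer genes by construction, and for the others the cause was not tested. RLE factors, DESeq2, both other filters and all rats in 1 fit gave 8. In females the count was 0 under every alternative, each rat left out included. For the difference between responses it was 0, against 1 with DESeq2, 1 without a filter on low counts and 0 to 1 with each rat left out. Between the intact sexes it was 2, against 1 at an adjusted p under 0.05, 1 without a filter, 1 with the class as a term, 0 among shorter-class libraries, 0 with the meningeal list, 3 with the neuron list and 1 to 3 with each rat left out. For the fragment class it was 0, against 2 without a filter and 0 with each rat left out.

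Libraries were not treated as paired by rat number in the reported fits. Correlations of deviations from the group means between rats of the same number were -0.0785 to -0.000881 for 4 male pairs and -0.0570 to 0.0347 for 6 female pairs. With the rat number as a replicate block 6 members were called in males, 0 in females, 0 for the difference, 1 between the intact sexes and 0 for the class.

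Counts over all genes moved by more than 1.5 times as follows. In males 1995 genes became 1265 at an adjusted p under 0.05, 796 with the class, 440 among shorter-class libraries, 1262 with the RNA integrity number, 96 with the neuron list, 7 with the meningeal list, 1274 with the replicate block and 1202 to 2446 with each rat left out. In females 5 became 1 at 0.05, 174 with DESeq2, 11 without a filter, 3 with the class, 11 with the RNA integrity number, 14 with the meningeal list, 0 with the block, 9 with all rats in 1 fit and 0 to 113 with each rat left out. The difference had 18, against 2 at 0.05, 243 with DESeq2, 33 without a filter, 6 with a filter at 1 CPM, 6 with the class, 5 among shorter-class libraries, 5 with the RNA integrity number, 1 with the meningeal list, 0 with the block and 1 to 275 with each rat left out. The intact sexes had 599, against 333 at 0.05, 34 among shorter-class libraries, 24 with the meningeal list, 255 with the block and 352 to 777 with each rat left out. The class had 0, against 59 with DESeq2, 210 without a filter, 2 with the meningeal list, 1 with the block and 0 to 1 with each rat left out.

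Depth limits the members with the fewest counts. Gabre had 5 to 27 counts a library and an interval of -1.24 to 0.20 in males, and Gabra6 and Gabrd were too low to test.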
